A study of Mus musculus with 46 samples.

Results

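Gene expression was compared between gastrocnemius muscles of *Actn3* knockout (KO) and wild-type (WT) male mice after orchidectomy (ORX), the surgical removal of the testes. The libraries were chosen by their labels, as every KO-ORX and WT-ORX column with counts, which gave 11 of the 45 libraries of the series (5 KO-ORX and 6 WT-ORX, of 46 samples in the labels). The labels list 6 KO-ORX mice, and counts of 5 of them were analysed here. The comparison asks which genotype differences are present in muscle once testicular androgens have been removed. All gastrocnemius groups shared the strain, C57BL6 in the labels and C57BL/6J in the study's methods, and male sex. They were operated on at 8 to 10 weeks of age by the study's methods, against 4 to 5 weeks in the labels, a disagreement not resolved here, and were killed 12 weeks after surgery. WT-ORX and KO-ORX mice lost their testes, and the WT-sham and KO-sham mice (6 libraries each) had their testes exposed and kept. A second experiment of the series, used here only for side-by-side values, sampled the spinalis muscle of female WT and KO mice of the same strain that carried an empty implant or an implant with dihydrotestosterone (DHT) for 6 weeks from 4 to 5 weeks of age. Hormone levels were not analysed here, so the degree of androgen loss in each mouse is not known from these values.

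Alpha-actinin-3, the product of *Actn3*, crosslinks actin filaments at the Z-disc of fast muscle fibres, and its relative alpha-actinin-2 is present in all fibres. Androgens promote the growth of muscle, and their withdrawal is followed by a loss of muscle mass. The gastrocnemius of the mouse is composed largely of fast fibres, the fibres that normally contain alpha-actinin-3.

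KO-ORX libraries 1 to 5 held 29705361, 26653932, 46759086, 48521557 and 41583270 counts on genes, and the WT-ORX libraries held between 39882434 and 55369921 (median 45623436). Markers of skeletal muscle fibres were present at high levels, with all 9 of 9 in the table and *Ttn*, the giant spring protein of the sarcomere, as the gene with the highest CPM. Their summed level was 189258, 170567, 184528, 189974 and 172190 CPM (counts scaled to a common library size by TMM, edgeR's trimmed mean of M-values) in KO-ORX libraries 1 to 5 and between 172751 and 226022 CPM (median 203599) in WT-ORX, so every library carried the markers of its labelled tissue. Of the 9, *Acta1*, *Tnnt3*, *Ckm* and *Des* were called lower in KO-ORX (44.4%, against 2.73% of all genes), and *Ckm* and *Des* were not called without KO-ORX libraries 1 and 2 (q of 0.054 and 0.073). KO-ORX libraries 1 and 2 stood apart from the others. On the third principal component of log2 CPM over all genes, which held 8.2% of the variance among the 23 gastrocnemius libraries, they scored 33.2 and 28, and the other 21 libraries lay between −20.3 and 13.4. They were also the 2 shallowest of the 11 ORX libraries. They had the highest summed fibroblast marker levels, 3494 and 2618 CPM against 1564 to 2171 CPM in the other ORX libraries. In bulk muscle, more cells of a type and more RNA per cell cannot be told apart. Results are therefore given with and without KO-ORX libraries 1 and 2, an alternative chosen after seeing the data. Fewer libraries enter that fit, so a lost call alone does not show that a difference rests on them. Some log2 differences hardly moved, as for *Asb2* (−0.63 in both fits) and *Tmem100* (−0.96 and −1.02). Others shrank, as for *Ryr1* (−0.39 and −0.28) and *Sat1* (0.38 and 0.24).

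*Actn3* (ENSMUSG00000006457, chromosome 19) was at 34.3, 45.3, 49.6, 53.1 and 44.4 CPM in KO-ORX libraries 1 to 5 and between 7826 and 9617 CPM (median 8964) in WT-ORX. Every KO-ORX library lay far below every WT-ORX library, and *Actn3* fell by 7.61 on the log2 scale (SE 0.13, edgeR q = 8.3e-25), so each library matches its genotype label. Between 1051 and 2702 counts remained on the gene in the KO-ORX libraries. *Actn2*, which encodes the alpha-actinin of all sarcomeric Z-discs, was at 407, 362, 309, 398 and 313 CPM in KO-ORX libraries 1 to 5 and between 236 and 334 CPM (median 281) in WT-ORX. Its ranges overlapped, 3 of the 5 KO-ORX libraries lay above the WT-ORX range, and the log2 difference of 0.34 (SE 0.11, edgeR q = 0.059) did not pass the threshold. *Actn1* and *Actn4*, which encode the non-muscle alpha-actinins, differed by 0.17 (edgeR q = 0.68) and 0.16 (edgeR q = 0.45). The difference of *Actn1* turned to −0.069 without KO-ORX libraries 1 and 2. Over the 4 alpha-actinin genes the median was 0.17, against −0.17 in sham mice and 0.033 without KO-ORX libraries 1 and 2.

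Of 17514 genes tested, 666 (3.80%) passed q ≤ 0.01 between KO-ORX and WT-ORX by the quasi-likelihood F test of edgeR, where q is the p-value adjusted over all genes by the method of Benjamini and Hochberg, and 3313 had an unadjusted p-value under 0.05. Genes past this threshold are referred to as called. Lower expression in KO-ORX was the more frequent direction, with 478 genes (2.73%) lower and 188 (1.07%) higher, so 28.2% of the called genes were higher. With library-size scaling in place of TMM the split was 222 higher and 251 lower, or 46.9% higher, and the median log2 fold change of all genes moved from 0.0086 to 0.054. Without KO-ORX libraries 1 and 2, 363 genes were called, 116 higher and 247 lower, and 339 of them were among the 666. The same genotype contrast in sham mice called 928 genes (5.30%), 434 higher and 494 lower, or 46.8% higher, and with library-size scaling 278 higher and 444 lower, or 38.5% higher. Which of the 2 contrasts had the larger share of higher genes thus depended on the scaling. Among the 666 genes, 565 (84.8%) had KO-ORX and WT-ORX log2 CPM ranges that did not overlap, 152 higher and 413 lower, and over all genes tested 980 (5.60%) had such ranges. Each p-value sets a genotype difference against the spread between mice, 1 library each. That spread was estimated over all 4 gastrocnemius groups, sham mice included. When only the 2 groups compared were fitted, 473 genes were called.

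The called differences were mostly small. Of the 188 higher genes, 34 differed by at least 1 on the log2 scale, 54 by 0.5 to under 1 and 100 by less than 0.5 (median 0.46). Of the 478 lower genes, 38 differed by at least 1, 115 by 0.5 to under 1 and 325 by less than 0.5 (median −0.40). Calls were concentrated among abundant genes, with 8% of the genes in the highest tertile of mean log2 CPM called, 2.69% in the middle and 0.719% in the lowest. The shares of the gene lists given below are set against all genes and were not matched for abundance. For lists of abundant genes the share over all genes is thus a low baseline. Protein-coding genes were called in 579 of 13465 cases (4.3%), long intergenic non-coding RNAs in 28 of 458 (6.11%) and small nucleolar RNAs in 7 of 52 (13.5%), all 7 of them higher in KO-ORX. Leaving aside the Y chromosome and mitochondrial DNA, which had 0 called of 6 and of 13 genes, the share called ran from 2.73% on chromosome 6 to 4.98% on the X chromosome, where 27 of 542 genes were called, 17 higher and 10 lower. On chromosome 19, which carries *Actn3*, 26 of 576 genes (4.51%) were called. Within 5 Mb of *Actn3*, 8 of 203 genes (3.94%, by GENCODE M21 positions) were called, a share close to that of all genes, among them *Actn3* itself, *Grk2*, *Ppp1r14b*, *Drap1*, *Eef1g*, *Gm31166* and *4930481A15Rik*. Exons of *Drap1* and *4930481A15Rik* overlap on opposite strands, so their calls may rest on shared reads. Of the 8, only *Grk2* was higher in KO-ORX. Without KO-ORX libraries 1 and 2, *Drap1* (q = 0.015), *Gm31166* (q = 0.034) and *4930481A15Rik* (q = 0.023) no longer passed by edgeR. When single libraries were left out in turn, *4930481A15Rik* lost its call in 5 of 23 fits (largest edgeR q 0.024; KO-ORX libraries 1, 4 and 5 and WT-ORX libraries 3 and 5) and *Gm31166* in 4 (0.018; KO-ORX libraries 1, 3 and 4 and WT-ORX library 4).

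Among the genes lower in KO-ORX, *Ybx3*, which encodes a cold-shock domain protein that binds DNA and RNA, had the smallest p-value after *Actn3*. *Ybx3* was at 370, 381, 392, 389 and 408 CPM in KO-ORX, against 626 to 777 CPM (median 702) in WT-ORX. The KO-ORX values were tightly grouped below the WT-ORX range, and *Ybx3* fell by 0.87 on the log2 scale (SE 0.055, edgeR q = 3.8e-11). *Pla2g7*, which encodes the secreted enzyme that inactivates platelet-activating factor, was at 9.92, 9.77, 16.4, 11.3 and 15.2 CPM in KO-ORX libraries 1 to 5 and between 55 and 60.9 CPM (median 57.8) in WT-ORX. All 5 KO-ORX libraries lay below the lowest WT-ORX library, and *Pla2g7* fell by 2.20 on the log2 scale (SE 0.15, edgeR q = 1.6e-10). *Pld5*, a member of the phospholipase D family, was at 0.196, 0.107, 0.417, 0.216 and 0.203 CPM in KO-ORX, against 3.22 to 4.37 CPM (median 3.45) in WT-ORX. These values rest on 3 to 20 counts in each KO-ORX library and 145 to 235 in each WT-ORX library, with no overlap, and *Pld5* fell by 3.93 on the log2 scale (SE 0.3, edgeR q = 1.3e-09). *Kcnab1*, which encodes an accessory subunit of voltage-gated potassium channels, was at 3.85, 3.62, 4.69, 4.05 and 3.8 CPM in KO-ORX libraries 1 to 5 and between 7.96 and 11.3 CPM (median 8.94) in WT-ORX. It was lower in every KO-ORX library than in any WT-ORX library and fell by 1.18 on the log2 scale (SE 0.1, edgeR q = 1.1e-08). *Nomo1*, a gene of an endoplasmic reticulum membrane protein, fell by 0.60 on the log2 scale (SE 0.051, edgeR q = 1.3e-08), and its KO-ORX values lay within a narrow band of 49.1 to 52.5 CPM. *Kmt5a*, which encodes a histone lysine methyltransferase, fell by 0.82 on the log2 scale (SE 0.071, edgeR q = 1.3e-08). *Me1*, which encodes the cytosolic malic enzyme that supplies NADPH, fell by 0.53 on the log2 scale (SE 0.051, edgeR q = 8.3e-08).

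Of the remaining lower genes with the smallest p-values, *Phf7*, which encodes a PHD finger protein, differed by −1.07 and *Wnk3*, which encodes a kinase that regulates cation-chloride cotransporters, by −1.17, both on the log2 scale and without overlap of the groups. *1700001O22Rik* differed by −3.45 (SE 0.33, edgeR q = 7.1e-08) on 2 to 11 counts in each KO-ORX library and 40 to 124 in each WT-ORX library. *Nos1*, the gene of the neuronal nitric oxide synthase that is anchored at the muscle membrane, was chosen after its values were seen and fell by 0.82 on the log2 scale (SE 0.097, edgeR q = 2.4e-06).

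Among the genes higher in KO-ORX, *Grk2*, which encodes a kinase that phosphorylates activated G protein-coupled receptors, had the smallest p-value. *Grk2* was at 105, 102, 114, 101 and 103 CPM in KO-ORX libraries 1 to 5 and between 36.5 and 43.6 CPM (median 40.2) in WT-ORX. It lay higher in every KO-ORX library than in any WT-ORX library and rose by 1.40 on the log2 scale (SE 0.058, edgeR q = 3.6e-15). *AW551984*, on chromosome 9, was at 26.6, 31.9, 25.7, 39.6 and 27.6 CPM in KO-ORX, against 2.17 to 3.72 CPM (median 2.99) in WT-ORX. It had the largest fold among the 12 higher genes with the smallest p-values and rose by 3.33 on the log2 scale (SE 0.2, edgeR q = 1.9e-11). *E2f2*, which encodes an E2F transcription factor of the cell cycle, was at 11.2, 11.2, 14.2, 12.3 and 9.06 CPM in KO-ORX libraries 1 to 5 and between 2.67 and 4 CPM (median 3.6) in WT-ORX. The groups were separate, and *E2f2* rose by 1.74 on the log2 scale (SE 0.11, edgeR q = 4.5e-11). *Tceal7*, a gene of the transcription elongation factor A-like family that is active in muscle, was at 219, 177, 184, 170 and 146 CPM in KO-ORX libraries 1 to 5 and between 36.4 and 42.4 CPM (median 38) in WT-ORX. The lowest KO-ORX library was above the highest WT-ORX library, and *Tceal7* rose by 2.21 on the log2 scale (SE 0.18, edgeR q = 4.0e-09).

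*Sln* encodes sarcolipin, a small membrane protein that inhibits the calcium pump of the sarcoplasmic reticulum. It was at 6.43, 16.8, 11.4, 18.5 and 8.88 CPM in KO-ORX libraries 1 to 5 and between 1.26 and 2.97 CPM (median 1.88) in WT-ORX. The 5 KO-ORX values were spread widely, all above the WT-ORX range, and *Sln* rose by 2.69 on the log2 scale (SE 0.24, edgeR q = 3.3e-08). *Cd28*, best known as a costimulatory receptor of T cells, was at 19.9, 24.2, 24.7, 30.2 and 35.4 CPM in KO-ORX libraries 1 to 5 and between 6.44 and 10.3 CPM (median 9.53) in WT-ORX. Every KO-ORX library exceeded every WT-ORX library, and *Cd28* rose by 1.59 on the log2 scale (SE 0.14, edgeR q = 1.3e-08). *Cobl*, which encodes an actin filament nucleator, was at 67.9, 61.6, 60.2, 68 and 59.5 CPM in KO-ORX, against 32.3 to 38.1 CPM (median 35.1) in WT-ORX. Its groups were separate, and *Cobl* rose by 0.86 on the log2 scale (SE 0.074, edgeR q = 1.5e-08). The others of the 12 higher genes with the smallest p-values were *A930003A15Rik* (1.83 on the log2 scale), the mitochondrial acyl-CoA thioesterase gene *Acot9* (0.65), the chromatin remodeller gene *Atrx* (0.39), the zinc finger gene *Zfp641* (0.69) and the armadillo repeat gene *Armcx4* (0.68), with edgeR q between 5.0e-08 and 5.0e-07. *Egf*, which encodes epidermal growth factor and was chosen after its values were seen, rose by 0.73 on the log2 scale (SE 0.082, edgeR q = 9.7e-07). The 24 genes with the smallest p-values, 12 higher and 12 lower, all passed without KO-ORX libraries 1 and 2 (largest edgeR q 2.7e-05), in each of the 23 fits that left out 1 library and under each of the 8 other settings that tested them. Exons of *Pla2g7*, *Tceal7*, *Kcnab1*, *Wnk3*, *Me1* and *Egf* overlap a gene on the opposite strand, and whether the authors' counting used the strand is not given in the sources used here, so reads of such pairs cannot be told apart. The same holds for *Rps2*, *Xirp2*, *Cacna1s*, *Ryr1*, *Trim54*, *Fbxo32*, *Acvr2a*, *Ckm*, *Des*, *Ndufs1*, *Ndufb2*, *Mybph*, *Spns2*, *Drap1*, *Ppp1r14b*, *4930481A15Rik*, *Actn4* and *Gm29773* among the genes given elsewhere.

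**Figure D1:**
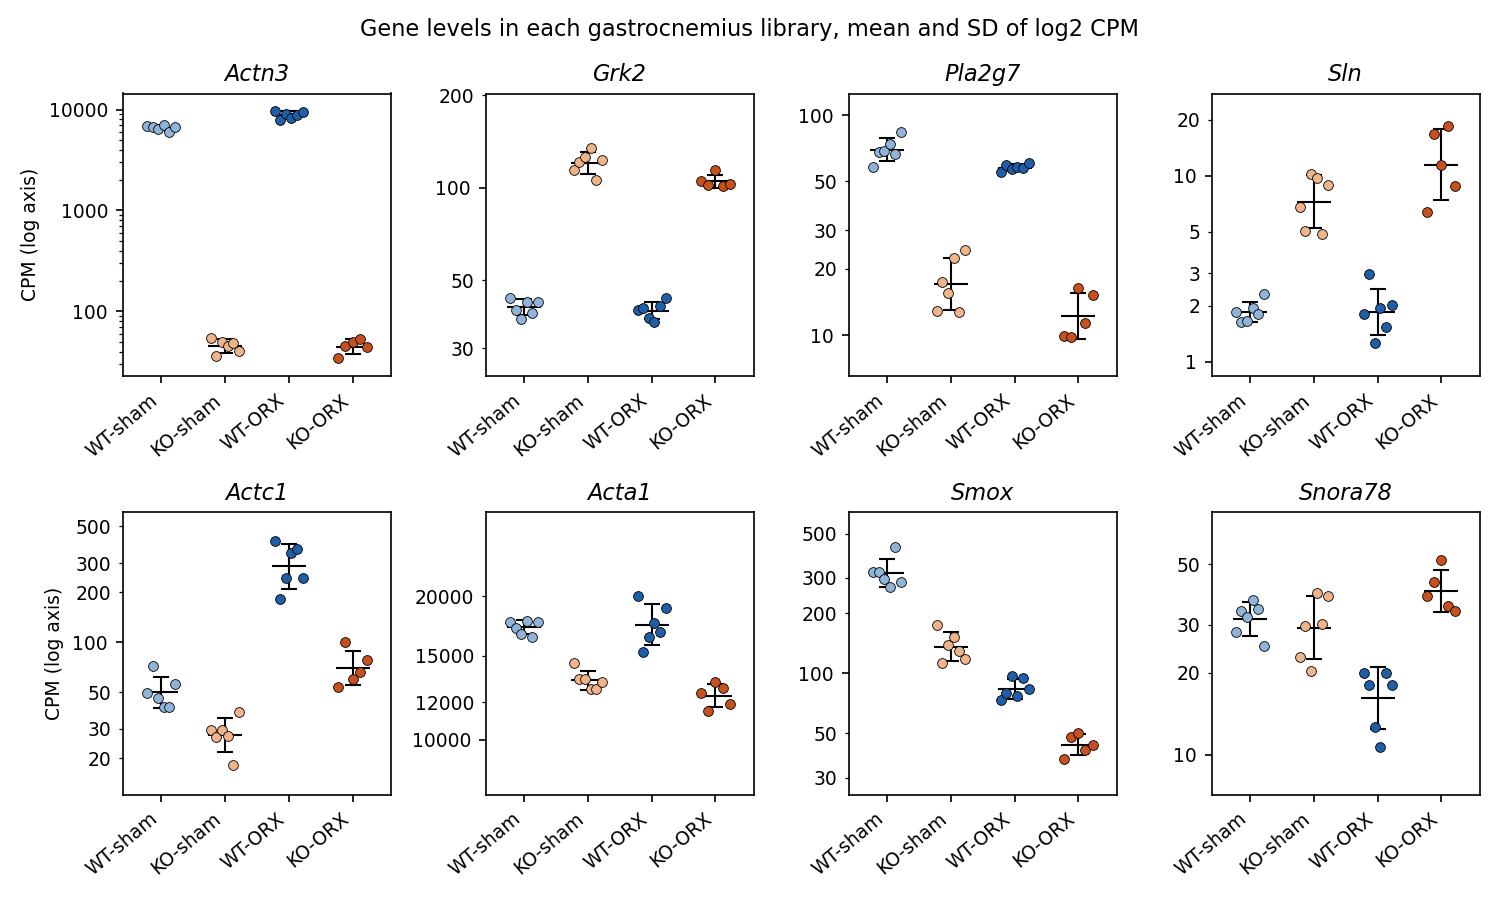
CPM of 8 genes in each gastrocnemius library (log axis), with points for libraries and bars for the mean and SD of log2 CPM in each of the 4 groups. In all 8 panels the 5 KO-ORX libraries sit apart from the 6 WT-ORX libraries, *Actn3*, *Pla2g7*, *Actc1*, *Acta1* and *Smox* below and *Grk2*, *Sln* and *Snora78* above them.

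Of 26 genes of the Z-disc, where alpha-actinins anchor actin, 2 rose and 2 fell (15.4%, against 3.80% of all genes, with a median log2 fold change of 0.012, against 0.0086), and in sham mice 4 rose and 1 fell. With library-size scaling 4 Z-disc genes were called higher and 1 lower. *Myoz3*, which encodes a calsarcin that binds alpha-actinin and calcineurin, was at 87, 83.2, 90, 99 and 91.3 CPM in KO-ORX, against 56.7 to 73.3 CPM (median 65.2) in WT-ORX. It was higher in every KO-ORX library and rose by 0.45 on the log2 scale (SE 0.056, edgeR q = 5.5e-06). *Myot*, which encodes the alpha-actinin partner myotilin, was at 1138, 1167, 1104, 1011 and 1049 CPM in KO-ORX libraries 1 to 5 and between 758 and 971 CPM (median 791) in WT-ORX. It was higher in all 5 KO-ORX libraries than in any WT-ORX library and rose by 0.40 on the log2 scale (SE 0.064, edgeR q = 1.3e-04). *Pdlim7*, a gene of a PDZ-LIM protein that binds actin filaments, fell by 0.42 on the log2 scale (SE 0.06, edgeR q = 3.6e-05). *Des*, the gene of the intermediate filament desmin, fell by 0.25 on the log2 scale (SE 0.061, edgeR q = 0.0094), a call lost without KO-ORX libraries 1 and 2 (q = 0.073) and in 16 of the 23 fits that each left out 1 library (largest q 0.03). Without KO-ORX libraries 1 and 2 the median of the Z-disc list was −0.025, with 2 genes higher and 1 lower. *Ldb3*, which encodes the alpha-actinin partner ZASP, differed by 0.20 (SE 0.062, edgeR q = 0.044) without overlap of the groups and did not pass the threshold.

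Stretch-response genes, 9 of 10 in the table, included 2 that rose and 1 that fell (33.3%, against 3.80% of all genes, median 0.19, which was 0.011 without KO-ORX libraries 1 and 2, where 2 were lower). *Xirp2*, which encodes an actin-binding protein of the Z-disc region and myotendinous junction, was at 5105, 5474, 5149, 5531 and 5033 CPM in KO-ORX, against 3766 to 4222 CPM (median 3983) in WT-ORX. Every KO-ORX value lay above the WT-ORX range, and *Xirp2* rose by 0.39 on the log2 scale (SE 0.046, edgeR q = 1.8e-06). *Ankrd23*, which encodes a titin-binding ankyrin repeat protein, rose by 0.67 on the log2 scale (SE 0.13, edgeR q = 8.5e-04). *Actc1*, the gene of cardiac alpha-actin that adult skeletal muscle expresses at a low level, was at 53.9, 99.6, 60.1, 65.9 and 78.1 CPM in KO-ORX libraries 1 to 5 and between 182 and 406 CPM (median 295) in WT-ORX. The highest KO-ORX library stayed below the lowest WT-ORX library, and *Actc1* fell by 2.06 on the log2 scale (SE 0.2, edgeR q = 1.2e-07). In sham mice the log2 difference of *Actc1* was −0.85, and the test of the difference between the 2 contrasts gave an edgeR q of 0.081, a DESeq2 q of 0.019, which is called, and a limma-voom q of 0.096. *Acta1*, which encodes the main alpha-actin of skeletal muscle, was at 12508, 11517, 13228, 12867 and 11871 CPM in KO-ORX libraries 1 to 5 and between 15261 and 20020 CPM (median 17203) in WT-ORX. It was lower in every KO-ORX library and fell by 0.50 on the log2 scale (SE 0.059, edgeR q = 2.4e-06). *Srf*, which encodes serum response factor, a transcription factor that binds the promoters of many actin genes, was chosen after its values were seen. It was at 21.4, 21.1, 23.1, 25.4 and 24.1 CPM in KO-ORX, against 28.2 to 37.4 CPM (median 34.6) in WT-ORX. All KO-ORX values were below all WT-ORX values, and *Srf* fell by 0.55 on the log2 scale (SE 0.081, edgeR q = 5.0e-05). *Acta1* and *Actc1* are close paralogs with similar coding sequence, and reads shared by both cannot be assigned here.

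Since *Acta1*, *Actc1* and *Srf* were all lower in KO-ORX, their promoters were searched for the CArG box, the sequence that serum response factor binds, in the RefSeq promoters of 11267 of the 17514 genes (250 bases before to 50 after the start, both strands). A CArG box was found in 181 of these promoters (1.61%), in 20 of 353 of the lower genes (5.67%) and in 4 of 126 of the higher genes (3.17%), the last being *Dmd*, *Gm15738*, *Itgb6* and *Meg3*, named after their values were seen. The 20 lower genes included *Acta1*, *Actc1* and *Srf*, which prompted the search, so their share is not independent of that choice. They also included *Asb2* and *Pitpna*. Of the genes called lower in all 4 genotype contrasts (ORX, sham, empty and DHT implants), 3 of 91 promoters (3.3%) had a box. The share of 1.61% is over all genes with a promoter and was not matched for abundance. The promoters of *Acta1* (chr8:123894726-123895025), *Actc1* (chr2:114052826-114053125) and *Srf* (chr17:46556113-46556412), all on the minus strand of GRCm38.p6, are printed 5′ to 3′ because each carries the box, and these genes were chosen for the search after their values were seen. Capitals mark the CArG boxes, which begin at position −73 from the start for *Acta1*, −47 for *Actc1* and −82 and −62 for *Srf*. A match is a description and shows neither binding nor a cause.
Acta1: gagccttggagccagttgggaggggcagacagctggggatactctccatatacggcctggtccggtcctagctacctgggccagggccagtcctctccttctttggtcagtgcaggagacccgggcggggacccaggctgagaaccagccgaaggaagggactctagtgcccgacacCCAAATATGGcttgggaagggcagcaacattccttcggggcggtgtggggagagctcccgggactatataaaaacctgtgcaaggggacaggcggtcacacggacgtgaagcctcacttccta
Actc1: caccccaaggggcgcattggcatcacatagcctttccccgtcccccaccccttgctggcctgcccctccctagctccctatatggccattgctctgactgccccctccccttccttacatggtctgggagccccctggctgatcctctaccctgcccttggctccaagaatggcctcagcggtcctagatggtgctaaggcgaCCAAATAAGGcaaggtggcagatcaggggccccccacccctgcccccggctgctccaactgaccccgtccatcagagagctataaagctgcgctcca
Srf: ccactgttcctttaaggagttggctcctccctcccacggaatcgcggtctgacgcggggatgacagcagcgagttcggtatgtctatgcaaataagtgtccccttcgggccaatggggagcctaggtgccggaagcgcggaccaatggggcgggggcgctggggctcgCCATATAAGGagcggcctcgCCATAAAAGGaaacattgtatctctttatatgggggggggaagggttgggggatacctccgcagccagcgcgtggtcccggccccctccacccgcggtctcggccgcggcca

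Of 8 myosin heavy chain genes, which encode the motor of the thick filament, 0 passed, with a median of 0.048 that turned to −0.16 without KO-ORX libraries 1 and 2. *Myh4*, which encodes the fast 2B myosin heavy chain, lay between 38429 and 43550 CPM in KO-ORX and between 39858 and 61573 CPM in WT-ORX and differed by −0.22 (edgeR q = 0.33). *Myh7*, which encodes the slow myosin heavy chain, lay between 135 and 275 CPM in KO-ORX and between 141 and 218 CPM in WT-ORX and differed by 0.18 (edgeR q = 0.7). Of 13 slow-fibre genes, 0 passed (median 0.18, and −0.025 without KO-ORX libraries 1 and 2). Of 13 fast-fibre genes, 2 fell (15.4%, against 3.80% of all genes, median −0.16). *Tnnt3*, which encodes fast troponin T, was at 11413, 11149, 12439, 11692 and 11527 CPM in KO-ORX, against 13980 to 16373 CPM (median 15511) in WT-ORX. Every KO-ORX library was below the WT-ORX range, and *Tnnt3* fell by 0.41 on the log2 scale (SE 0.049, edgeR q = 3.6e-06). *Myl1*, which encodes a fast myosin light chain, fell by 0.30 on the log2 scale (SE 0.07, edgeR q = 0.0079) with overlapping ranges. The call of *Myl1* was lost without KO-ORX libraries 1 and 2 (q = 0.086) and in 10 of the 23 fits that each left out 1 library (largest q 0.026). Of 6 of 8 myosin-binding protein genes in the table, 1 passed (16.7%), *Myom2*, the gene of the M-band protein myomesin-2, which rose by 0.48 on the log2 scale (SE 0.092, edgeR q = 9.5e-04) and had q = 0.013 by edgeR without KO-ORX libraries 1 and 2. *Mybph*, which encodes myosin-binding protein H, lay between 106 and 151 CPM in KO-ORX and between 85.6 and 149 CPM in WT-ORX. Its log2 difference was 0.073 (SE 0.26, edgeR q = 0.93) after ORX and 1.89 in sham mice, and the test of the difference between the contrasts gave an edgeR q of 0.06, while DESeq2 (q = 0.014) and limma-voom (q = 0.035) called it. *Ckm*, the muscle creatine kinase gene, fell by 0.37 on the log2 scale (SE 0.079, edgeR q = 0.0027), a call lost without KO-ORX library 1 or 2 (largest q 0.012) and without both (q = 0.054).

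Calcium handling genes, which release and reclaim the calcium that triggers contraction, were called in 7 of 29 cases (24.1%, against 3.80% of all genes), 1 higher and 6 lower (median −0.054). The higher gene was *Sln*. *Cacna1s*, which encodes the voltage sensor of the transverse tubule, was at 640, 595, 679, 591 and 585 CPM in KO-ORX libraries 1 to 5 and between 808 and 976 CPM (median 852) in WT-ORX. No KO-ORX library reached the WT-ORX range, and *Cacna1s* fell by 0.49 on the log2 scale (SE 0.062, edgeR q = 7.4e-06). *Calm3*, a calmodulin gene, fell by 0.38 on the log2 scale (SE 0.063, edgeR q = 2.0e-04). *Jph2*, which encodes a junctophilin that tethers the transverse tubule to the sarcoplasmic reticulum, *Cacng1*, which encodes the gamma subunit of the voltage sensor, and *Ryr1*, which encodes the calcium release channel, fell by 0.33, 0.23 and 0.39 on the log2 scale and were added to the named genes after their values were seen. With library-size scaling 2 genes were called higher and 4 lower. Without KO-ORX libraries 1 and 2, 1 gene was higher and 3 lower, since *Jph2* (q = 0.062), *Cacng1* (q = 0.051) and *Ryr1* (q = 0.11) no longer passed by edgeR. Leaving out KO-ORX library 2 alone ended the call of *Cacng1* (q = 0.011), leaving out library 1 or 2 that of *Jph2* (largest q 0.011), and that of *Ryr1* was lost without KO-ORX library 1 or 2 or WT-ORX library 1 or 6 (largest q 0.024). In sham mice 2 genes of this list rose and 6 fell. Of 13 calcineurin and NFAT genes, which form a calcium-dependent signalling pathway of slow fibres, 0 passed (median 0.058), and 2 rose in sham mice.

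Dystrophin complex and costamere genes, which link the contractile apparatus to the membrane, were called in 5 of 29 cases (17.2%, against 3.80% of all genes, 29 of 30 in the table, median 0.065), 4 higher and 1 lower. *Dmd*, which encodes dystrophin, was at 927, 902, 783, 922 and 889 CPM in KO-ORX libraries 1 to 5 and between 678 and 771 CPM (median 713) in WT-ORX. Its lowest KO-ORX library, library 3, was above the highest WT-ORX library, and *Dmd* rose by 0.29 on the log2 scale (SE 0.051, edgeR q = 4.8e-04). The sarcoglycan genes *Sgcb* and *Sgcd* each rose by 0.23 on the log2 scale, *Sgcd* being named after its value was seen. *Sntb1*, which encodes a syntrophin, fell by 0.58 on the log2 scale (SE 0.11, edgeR q = 0.0013). These 4 calls were lost without KO-ORX libraries 1 and 2, with edgeR q of 0.013 for *Dmd*, 0.039 for *Sgcb*, 0.068 for *Sgcd* and 0.025 for *Sntb1*. Leaving out KO-ORX library 2 alone ended the call of *Sgcb* (q = 0.012). *Sgcd* lost its call in 7 fits that each left out 1 library (KO-ORX libraries 1, 2 and 4 and WT-ORX libraries 1, 2, 4 and 6, largest q 0.024).

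Among the listed regulators of muscle growth and atrophy, each called gene was lower in KO-ORX. Of 30 myostatin, activin and BMP pathway genes tested (of 33), 0 rose and 5 fell (16.7%, against 3.80% of all genes called and 2.73% lower, median −0.09), and 3 were lower without KO-ORX libraries 1 and 2. *Mstn*, which encodes the secreted inhibitor of muscle growth myostatin, was at 69.5, 74.5, 49.9, 59.9 and 68.9 CPM in KO-ORX libraries 1 to 5 and between 106 and 130 CPM (median 112) in WT-ORX. All KO-ORX libraries were below all WT-ORX libraries, and *Mstn* fell by 0.85 on the log2 scale (SE 0.11, edgeR q = 1.6e-05). *Gdf11*, the gene of the ligand closest to myostatin, was at 7.8, 8.74, 6.69, 8.52 and 8.56 CPM in KO-ORX, against 15.8 to 19.3 CPM (median 17.9) in WT-ORX. It was at about the same level in all 5 KO-ORX libraries, below every WT-ORX library, and fell by 1.15 on the log2 scale (SE 0.096, edgeR q = 1.0e-08). *Smad3*, which encodes a signal transducer of these ligands, fell by 0.51 on the log2 scale (SE 0.079, edgeR q = 1.1e-04). *Acvr2a*, which encodes an activin receptor, fell by 0.34 on the log2 scale (SE 0.061, edgeR q = 5.5e-04) and had q = 0.017 without KO-ORX libraries 1 and 2. *Tmem100*, a membrane protein gene of the BMP pathway, fell by 0.96 on the log2 scale (SE 0.2, edgeR q = 0.0021) and had q = 0.011 without them. For *Tmem100* the difference was smaller than in sham mice (−2.11), and the test of that difference gave an edgeR q of 0.088, a DESeq2 q of 0.018, which is called, and a limma-voom q of 0.19.

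Of 26 atrophy ligase and FOXO genes, 0 rose and 4 fell (15.4%, against 3.80% of all genes, median −0.073), and 2 were lower without KO-ORX libraries 1 and 2. *Fbxo32*, which encodes the ubiquitin ligase atrogin-1, was at 153, 158, 184, 187 and 174 CPM in KO-ORX libraries 1 to 5 and between 214 and 312 CPM (median 265) in WT-ORX. Its groups did not overlap, and *Fbxo32* fell by 0.62 on the log2 scale (SE 0.11, edgeR q = 5.5e-04), with q = 0.018 by edgeR without KO-ORX libraries 1 and 2. The other lower genes were the ubiquitin ligase genes *Trim54*, *Fbxo31* and *Asb2*, which fell by 0.35, 0.37 and 0.63 on the log2 scale, and *Asb2* had q = 0.016 by edgeR without those libraries. *Trim63*, which encodes the ligase MuRF1, lay between 189 and 239 CPM in KO-ORX and between 233 and 330 CPM in WT-ORX, differed by −0.38 (edgeR q = 0.01) and did not pass the threshold before rounding. Of 17 androgen and glucocorticoid signalling genes in the table (of 19), 0 passed (median −0.051). Of 27 insulin-like growth factor and mTOR genes (of 28), 0 rose and 2 fell (7.41%, against 3.80% of all genes, median −0.079). In sham mice 7 fell, where 5.30% of all genes were called, and for the interaction edgeR, DESeq2 and limma-voom each called 0 of the 27. Of the 27, 3 had an unadjusted edgeR interaction p-value under 0.05, against 1683 of all 17514 genes. *Rictor*, which encodes a defining subunit of mTOR complex 2, fell by 0.44 on the log2 scale (SE 0.07, edgeR q = 1.4e-04). *Irs2*, an insulin receptor substrate gene, fell by 0.51 on the log2 scale (SE 0.11, edgeR q = 0.004) with overlapping ranges. Its call was lost in 6 fits that each left out 1 library (KO-ORX libraries 1 to 4 and WT-ORX libraries 4 and 6, largest q 0.017) and without KO-ORX libraries 1 and 2 (q = 0.055).

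Polyamine genes, which make and convert putrescine, spermidine and spermine, were called in 5 of 15 cases (33.3%, against 3.80% of all genes), 1 higher and 4 lower (median −0.056), and with library-size scaling 1 was called higher and 2 lower. *Smox*, which encodes the oxidase that converts spermine to spermidine, was at 37, 47.8, 50.2, 41.1 and 43.9 CPM in KO-ORX libraries 1 to 5 and between 73.2 and 96.8 CPM (median 81.2) in WT-ORX. All KO-ORX libraries were below the WT-ORX range, and *Smox* fell by 0.93 on the log2 scale (SE 0.12, edgeR q = 5.2e-06). *Amd1*, which encodes the S-adenosylmethionine decarboxylase of polyamine synthesis, was at 142, 149, 121, 128 and 129 CPM in KO-ORX, against 173 to 237 CPM (median 202) in WT-ORX. It was lower in every KO-ORX library and fell by 0.61 on the log2 scale (SE 0.094, edgeR q = 8.7e-05), and reads could be shared with its near-identical copy *Amd2*, which differed by −0.35 (edgeR q = 0.062). *Sms*, the spermine synthase gene, fell by 0.28 on the log2 scale (SE 0.058, edgeR q = 0.002), with q = 0.015 without KO-ORX libraries 1 and 2. *Odc1*, which encodes the ornithine decarboxylase that makes putrescine, fell by 0.46 on the log2 scale (SE 0.11, edgeR q = 0.0076) with ranges that met at 41.4 CPM. The call of *Odc1* was lost in 8 of the fits that each left out 1 library (KO-sham library 5, KO-ORX libraries 3 to 5 and WT-ORX libraries 1, 2, 5 and 6, largest q 0.032). *Sat1*, which encodes an acetyltransferase that starts polyamine breakdown, rose by 0.38 on the log2 scale (SE 0.086, edgeR q = 0.0049) with overlapping ranges, a call lost in 7 such fits (KO-ORX libraries 1 to 3 and WT-ORX libraries 1, 4, 5 and 6, largest q 0.026). Without KO-ORX libraries 1 and 2, 0 polyamine genes were higher and 3 lower, and *Sat1* had q = 0.13. Of 20 genes of methionine and S-adenosylmethionine metabolism, 0 passed (median 0.012).

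Of 33 glycolysis and glycogen genes, 1 fell (3.03%, against 3.80% of all genes, median −0.052), *Ugp2*, which encodes the enzyme that makes UDP-glucose for glycogen and which fell by 0.26 on the log2 scale (SE 0.05, edgeR q = 0.0011). With library-size scaling *Ugp2* was not called and 1 other gene of this list was called higher. Of 36 nuclear subunits of complex I, 2 rose (5.56%), and the list's median of −0.032 turned to 0.017 with library-size scaling. They were *Ndufs1*, at 0.27 (edgeR q = 0.0015) on the log2 scale, and *Ndufb2*, at 0.39 (edgeR q = 0.0085), with q of 0.03 and 0.074 without KO-ORX libraries 1 and 2, and *Ndufb2* lost its call in 14 of the 23 fits that each left out 1 library (largest q 0.038). Of 43 nuclear subunits of complexes II to V (of 58), 0 passed after ORX and 7 rose in sham mice (medians 0.038 and 0.19), and with library-size scaling 2 were called higher after ORX. Of 26 tricarboxylic acid cycle genes, 1 rose after ORX (3.85%, median 0.10), against 10 higher and 1 lower in sham mice. It was *Sucla2*, which encodes a subunit of the ATP-forming succinyl-CoA ligase, and it was at 572, 597, 650, 570 and 575 CPM in KO-ORX, against 448 to 499 CPM (median 473) in WT-ORX. Every KO-ORX library exceeded the WT-ORX range, and *Sucla2* rose by 0.33 on the log2 scale (SE 0.052, edgeR q = 1.3e-04). Of the complex I list, 4 genes rose in sham mice (median 0.18, against −0.032 after ORX). Genes called in only one of these contrasts were not shown by edgeR to differ between them. For the interaction edgeR called 0 genes of these 4 lists, DESeq2 called 1, 0, 1 and 1 and limma-voom 0. An unadjusted edgeR interaction p-value under 0.05 was found for 6 of 33, 14 of 36, 9 of 43 and 7 of 26 genes. Over all genes the share was smaller, 1683 of 17514. Of 30 fatty acid uptake and oxidation genes, 0 passed (median 0.12). Of 16 genes of PGC-1, oestrogen-related and thyroid receptors, 1 fell (6.25%), and the list's median of −8.9e-05 turned to 0.043 with library-size scaling. It was *Esr1*, the oestrogen receptor alpha gene, which fell by 0.28 on the log2 scale (SE 0.067, edgeR q = 0.0077) with overlapping ranges, had q = 0.11 without KO-ORX libraries 1 and 2 and lost its call in 9 fits that each left out 1 library (largest q 0.028). Of 7 protein genes of mitochondrial DNA, 0 passed (median −0.072). Over the 8 functional lists with 0 calls by edgeR after ORX, which hold 150 distinct genes, DESeq2 called 5 and limma-voom 0. Of the 150, 23 had an unadjusted edgeR p-value under 0.05, a smaller share than the 3313 of 17514 over all genes.

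Of 83 cytosolic ribosomal protein genes, 12 fell and 0 rose (14.5%, against 3.80% of all genes, median −0.16). In sham mice 3 of them fell (median −0.12), and edgeR, DESeq2 and limma-voom each called 0 for the interaction. Of the 83, 10 had an unadjusted edgeR interaction p-value under 0.05, against 1683 of all 17514 genes. *Rpl4*, which encodes a protein of the large ribosomal subunit, was at 440, 453, 485, 457 and 474 CPM in KO-ORX libraries 1 to 5 and between 561 and 684 CPM (median 588) in WT-ORX. No KO-ORX library reached the WT-ORX range, and *Rpl4* fell by 0.38 on the log2 scale (SE 0.054, edgeR q = 2.8e-05). *Rps2*, *Rpsa* and *Rpl29* fell by 0.56, 0.42 and 0.47 on the log2 scale. Ribosomal protein genes have many near-identical pseudogene copies that can share their reads. The count was 7 with library-size scaling and 4 without KO-ORX libraries 1 and 2, with 0 higher under both. Of 77 mitochondrial ribosomal protein genes, 1 fell (1.3%), and the list's median of −0.034 turned to 0.011 with library-size scaling and to 0.0034 without KO-ORX libraries 1 and 2. It was *Mrpl55*, at −0.23 (edgeR q = 0.0092), whose call was lost in 17 of the 23 fits that each left out 1 library (largest q 0.034) and without KO-ORX libraries 1 and 2 (q = 0.013). Of 37 proteasome subunit genes, 1 rose (2.7%, median 0.032), *Psmb4*, which rose by 0.24 on the log2 scale (SE 0.054, edgeR q = 0.0047) and lost its call without KO-ORX library 3 or 5 or WT-ORX library 3 or 4 (largest q 0.022). In sham mice 6 proteasome genes rose and 1 fell. Of 31 autophagy and lysosome genes, 2 fell (6.45%, median 0.00043), neither of them called with library-size scaling, *Gabarap*, which encodes an autophagosome membrane protein, and *Ctsl*, which encodes the lysosomal protease cathepsin L. *Gabarap* fell by 0.24 on the log2 scale (SE 0.048, edgeR q = 0.0014) and had q = 0.013 without KO-ORX libraries 1 and 2. *Ctsl* fell by 0.26 on the log2 scale (SE 0.057, edgeR q = 0.0038) and had q = 0.042 without them. *Ctsl* also lost its call in 5 fits that each left out 1 library (KO-ORX libraries 1, 2, 4 and 5 and WT-ORX library 4, largest q 0.018). Of 27 heat shock genes, 1 fell (3.7%), *Dnajb5* at −0.35 (edgeR q = 0.0022), and the list's median of 0.038 was −0.012 without KO-ORX libraries 1 and 2.

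Of 42 collagen genes, 1 fell (2.38%, against 3.80% of all genes), *Col9a1* at −1.37 (edgeR q = 1.8e-05). The list's median was 0.22, against −0.19 in sham mice and 0.035 without KO-ORX libraries 1 and 2. Among the ORX libraries, these 2 had the highest summed fibroblast markers. Of 20 neuromuscular junction and denervation genes (of 21), 1 rose and 2 fell (15%), with a median of 0.00085 that was −0.057 without KO-ORX libraries 1 and 2. *Musk*, which encodes the kinase that clusters acetylcholine receptors, was at 17.3, 19.6, 9.56, 12.4 and 11.7 CPM in KO-ORX libraries 1 to 5 and between 19.9 and 32.3 CPM (median 24) in WT-ORX. KO-ORX library 2, at 19.6 CPM, lay just below the lowest WT-ORX value of 19.9 CPM, and *Musk* fell by 0.87 on the log2 scale (SE 0.15, edgeR q = 3.5e-04). *Chrnb1*, which encodes the beta subunit of the muscle acetylcholine receptor, rose by 0.35 on the log2 scale (SE 0.083, edgeR q = 0.0084), and *Fgfbp1*, which encodes a carrier of fibroblast growth factors, fell by 1.08 on the log2 scale (SE 0.26, edgeR q = 0.008) with overlapping ranges. Both calls were lost without KO-ORX libraries 1 and 2 (edgeR q of 0.017 and 0.093) and in 12 and 10 of the 23 fits that each left out 1 library (largest q 0.035 and 0.033). Of 21 myogenic and satellite cell genes (of 23), *Tceal7* rose and 2 fell (14.3%, median 0.02, and −0.00086 without KO-ORX libraries 1 and 2). *Eya1*, which encodes a phosphatase that acts in muscle development, fell by 0.40 on the log2 scale (SE 0.065, edgeR q = 1.6e-04). Of 19 genes listed because the study's text names them, *Fbxo32* and *Trim63* from earlier work and others from these same samples, so that their count is no independent evidence, 2 rose and 8 fell (52.6%, median −0.31), and without KO-ORX libraries 1 and 2, 2 rose and 5 fell.

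**Figure D2:**
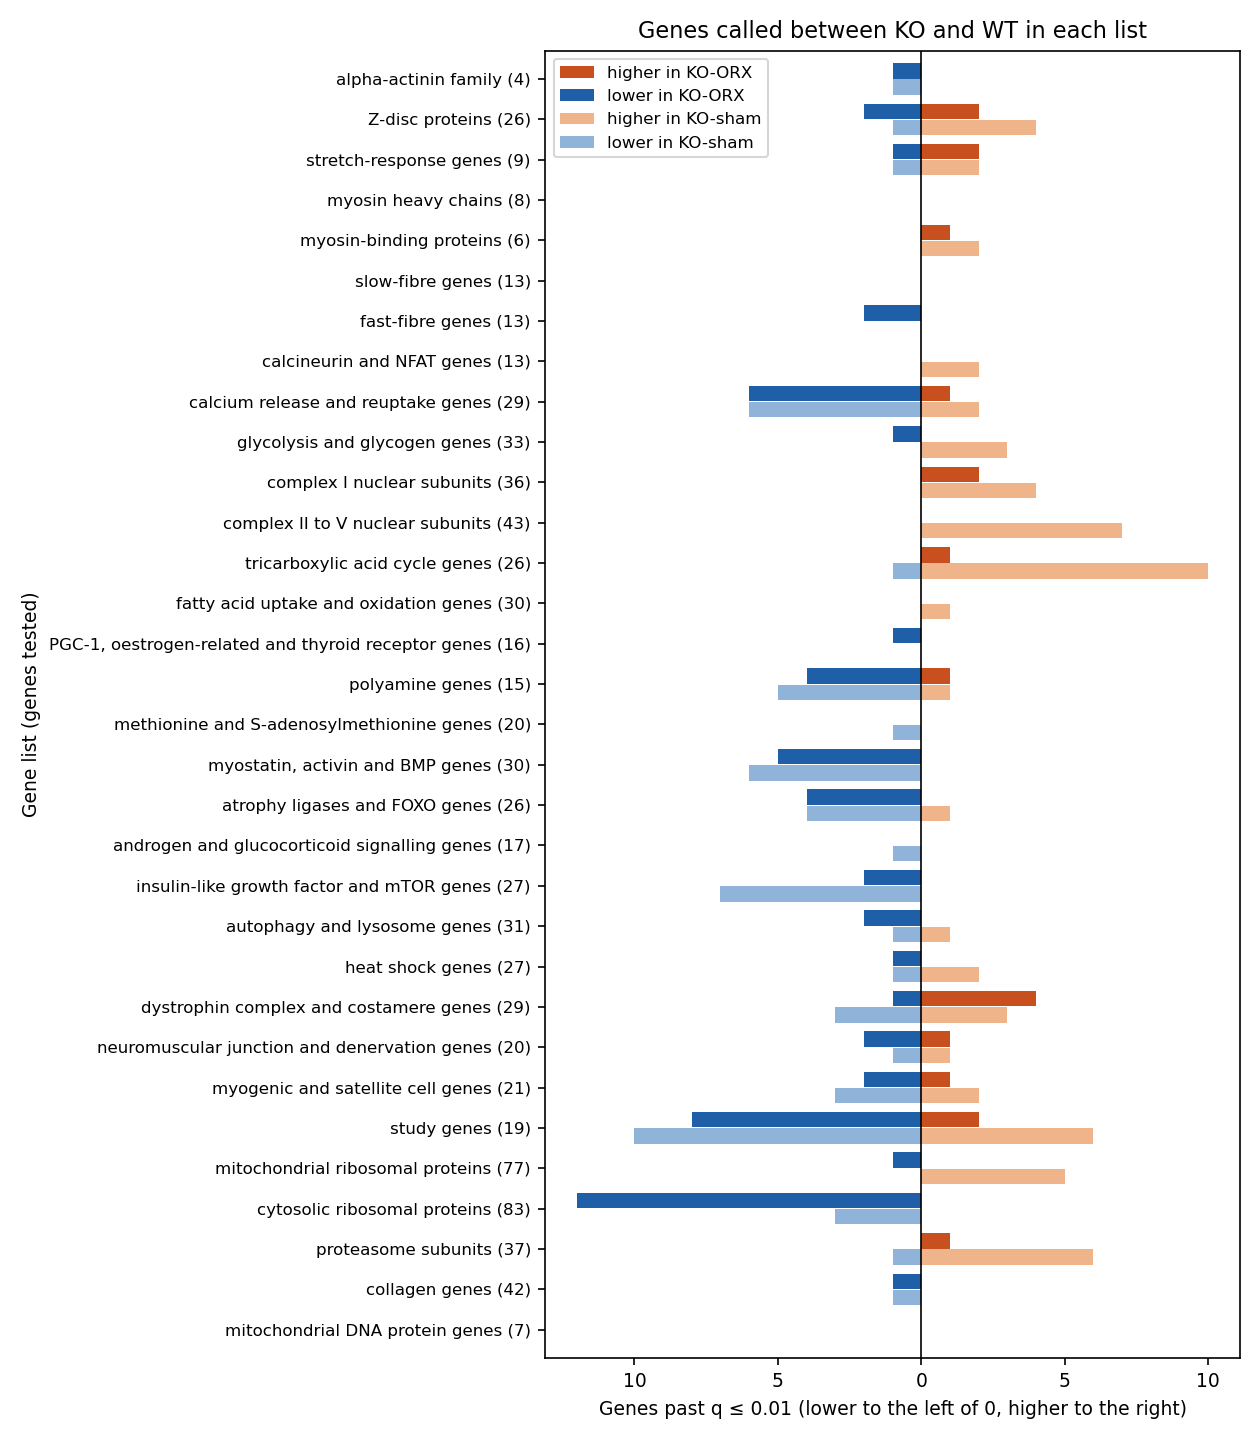
Number of genes past q ≤ 0.01 (edgeR) in each gene list, with the number of genes tested in brackets, lower genes to the left of 0 and higher genes to the right, in the ORX (dark bars) and sham (pale bars) genotype contrasts. Of the cytosolic ribosomal proteins 12 of 83 were lower after ORX, and tricarboxylic acid cycle genes had 10 higher genes in sham mice and 1 after ORX.

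Markers of other cell types were summed in each library, and their part in the results was not tested. Adipocyte markers, all 10 in the table with *Scd1* the highest in CPM, summed to 836, 649, 784, 1010 and 1038 CPM in KO-ORX libraries 1 to 5 and to between 477 and 690 CPM (median 594) in WT-ORX. They were higher in 4 of 5 KO-ORX libraries than in any WT-ORX library, and 0 of 10 were called (median log2 fold change 0.48). Beside them stand the lipid synthesis genes *Fasn*, which encodes fatty acid synthase, and *Elovl6*, which encodes a fatty acid elongase. *Fasn*, chosen after its values were seen, was at 133, 78.7, 133, 148 and 94.2 CPM in KO-ORX libraries 1 to 5 and between 29.2 and 81 CPM (median 45.7) in WT-ORX. It was higher in 4 of the 5 KO-ORX libraries than in any WT-ORX library and rose by 1.18 on the log2 scale (SE 0.27, edgeR q = 0.0064), a call lost without KO-ORX libraries 1 and 2 (q = 0.015) and in 7 fits that each left out 1 library (KO-ORX libraries 1, 3 and 4 and WT-ORX libraries 2, 3, 4 and 6, largest q 0.023). *Elovl6* rose by 0.84 on the log2 scale (SE 0.2, edgeR q = 0.0069), a call lost in 6 such fits (KO-ORX libraries 1, 3 and 4 and WT-ORX libraries 2, 3 and 4, largest q 0.038).

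Fibroblast markers, 8 of 8 with *Dcn* the highest in CPM, summed to 3494, 2618, 1564, 1960 and 1783 CPM in KO-ORX and to between 1690 and 2171 CPM (median 1916) in WT-ORX, with 0 called and a median of −0.00087 that turned to 0.044 with library-size scaling. Tendon markers, 6 of 6 with *Thbs4* the highest in CPM, summed to 943, 699, 362, 690 and 441 CPM in KO-ORX and to 329 to 855 CPM (median 552) in WT-ORX, with 0 called and a median of 0.067 that turned to −0.21 without KO-ORX libraries 1 and 2. Macrophage markers, 9 of 9 with *Lyz2* the highest in CPM, summed to 240, 198, 217, 188 and 212 CPM against 211 to 249 CPM (median 233). The complement gene *C1qa* fell by 0.48 on the log2 scale (SE 0.11, edgeR q = 0.009), a call lost without KO-ORX libraries 1 and 2 (q = 0.033) and in 15 of the 23 fits that each left out 1 library (largest q 0.027). Endothelial markers, 9 of 9 with *Pecam1* the highest in CPM, summed to 351, 261, 344, 339 and 341 CPM against 264 to 335 CPM (median 296), with 0 called. Smooth muscle and pericyte markers, 8 of 8 with *Rgs5* the highest in CPM, summed to 746, 697, 666, 685 and 692 CPM against 624 to 701 CPM (median 670), with 0 called. Schwann cell markers, 7 of 7 with *Pmp22* the highest in CPM, summed to 100, 92.2, 66, 115 and 102 CPM against 78.3 to 108 CPM (median 95.6), with 0 called and a median of −0.016 that turned to 0.029 with library-size scaling. Red blood cell markers, 5 of 5 with *Hbb-bs* the highest in CPM, whose gene copies share reads, summed to 514, 531, 379, 469 and 288 CPM against 236 to 452 CPM (median 279), with 0 called. Of 6 lymphocyte markers 2 were in the table, and *Ptprc* and *Cd3e* summed to 19.4, 16.6, 19.7, 17.9 and 21.9 CPM against 12.6 to 22.6 CPM (median 17.6). *Cd3e*, which encodes a chain of the T cell receptor complex, rose by 1.33 on the log2 scale (SE 0.22, edgeR q = 1.7e-04) with overlapping ranges. Exons of *Cd3e* overlap *Gm48719*, named after its values were seen, on the opposite strand. Over the 7 marker lists with 0 calls by edgeR, DESeq2 and limma-voom called 0. Of their 53 genes, 11 had an unadjusted edgeR p-value under 0.05, a share close to the 3313 of 17514 over all genes. The ranges of the 2 groups overlapped for each of these summed lists.

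The KO-ORX against WT-ORX differences were set beside those of separate mice with testes. Of the 666 genes called after ORX, 348 were also called in the same direction in sham mice, 110 higher and 238 lower, which is 52.3% of the ORX calls and 37.5% of the sham calls. The difference was larger after ORX for 186 of the 348 and smaller for 162. Of the 318 genes called after ORX and not in sham mice, 294 had the same sign in sham mice. The same sign in both contrasts was found for 11000 of the 17514 genes tested (62.8%). The median absolute log2 fold change of the 318 genes was 0.37 after ORX and 0.16 in sham. By edgeR the interaction was called for 1 of the 318, *Snora78*, and the others were not shown to differ between the contrasts. Of the 318, 155 had an unadjusted interaction p-value under 0.05, which choosing genes called in only one contrast favours, and DESeq2 called 26 and limma-voom 3. Over all genes, edgeR called the interaction for 4 of 17514 (0.0228%) at q < 0.05, 1683 had an unadjusted p-value under 0.05, and DESeq2 called 125 and limma-voom 10. Leaving out 1 library moved the count to between 2 and 38, with 38 when KO-ORX library 3 was left out, 24 without WT-ORX library 2, 10 without KO-sham library 5, 9 without KO-sham library 2 or WT-sham library 2, 8 without WT-sham library 1 or 6, 7 without KO-sham library 4 or WT-sham library 4, and 2 without KO-sham library 6 or WT-ORX library 4.

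*Snora78*, a small nucleolar RNA of the class that guides pseudouridylation, was at 38.4, 42.9, 51.9, 35.1 and 33.7 CPM in KO-ORX libraries 1 to 5 and between 10.7 and 20 CPM (median 18) in WT-ORX. It was higher in every KO-ORX library, rose by 1.29 on the log2 scale (SE 0.17, edgeR q = 8.0e-06), and its log2 difference in sham mice was −0.074 (edgeR q = 0.024 for the difference between the contrasts, and 0.062 without KO-ORX libraries 1 and 2). *Snora78* lies within the long non-coding gene *Snhg9*, so its reads cannot be fully told apart from those of *Snhg9*. Exons of *Snhg9* overlap *Rps2* on the opposite strand, and no such exon overlap was found for *Snora78*. *Snhg9*, added after its values were seen, differed by 0.053 (edgeR q = 0.94). The other genes called for the interaction were *Ttll7*, which encodes a tubulin ligase, *Spns2*, which encodes a transporter of sphingosine-1-phosphate, and *Efcab6*, which encodes an EF-hand protein. *Ttll7* differed by −0.16 (edgeR q = 0.031) after ORX and −0.69 in sham mice, with the 5 KO-ORX libraries between 238 and 247 CPM and WT-ORX between 243 and 296 CPM. *Spns2*, at −1.18 in sham mice, fell by 0.41 on the log2 scale (SE 0.097, edgeR q = 0.0074) after ORX, a call lost without KO-ORX libraries 1 and 2 (q = 0.021) and in 7 fits that each left out 1 library (KO-ORX libraries 2 to 5 and WT-ORX libraries 1, 3 and 6, largest q 0.029). *Efcab6* lay between 13.8 and 15.7 CPM in KO-ORX and between 13.9 and 15.8 CPM in WT-ORX, almost the same range, and differed by 0.032 (edgeR q = 0.83) after ORX and 0.47 in sham mice. The interaction calls of *Spns2* and *Efcab6* were made in 20 and 15 of the 23 fits that each left out 1 library.

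Some genes were called after ORX while their sham difference was close to 0. By the smallest absolute sham difference these were *Elovl6*, *Cmtm4*, *Gm8355*, *Gm29773*, *Gm26448* and *Myl1*, with log2 differences of 0.0033, −0.005, 0.0052, 0.0052, −0.0064 and 0.0066 in sham mice and 0.84, 0.26, 0.33, −0.46, 0.78 and −0.30 after ORX. EdgeR called the interaction for 0 of these 6 (q from 0.11 to 0.3), limma-voom called 0 and DESeq2 called *Gm26448* (q = 0.016). All 6 had an unadjusted interaction p-value under 0.05, which the choice of genes by their sham difference favours, so it is no evidence that the contrasts differ. *Cmtm4* (q = 0.02), *Gm8355* (q = 0.058) and *Gm29773* (q = 0.03) lost their edgeR calls without KO-ORX libraries 1 and 2, *Gm8355* also without KO-ORX library 1 alone (q = 0.014) and *Gm29773* in 7 fits that each left out 1 library (each KO-ORX library and WT-ORX libraries 2 and 5, largest q 0.014). *Pitpna*, which encodes a phosphatidylinositol transfer protein, was at 109, 110, 119, 118 and 126 CPM in KO-ORX libraries 1 to 5 and between 136 and 169 CPM (median 162) in WT-ORX. It was lower in all 5 KO-ORX libraries and fell by 0.44 on the log2 scale (SE 0.06, edgeR q = 1.6e-05), with a log2 difference of −0.012 in sham mice (edgeR q = 0.059 for the difference between the contrasts, which DESeq2 and limma-voom called with q of 0.0011 and 0.041).

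**Figure D3:**
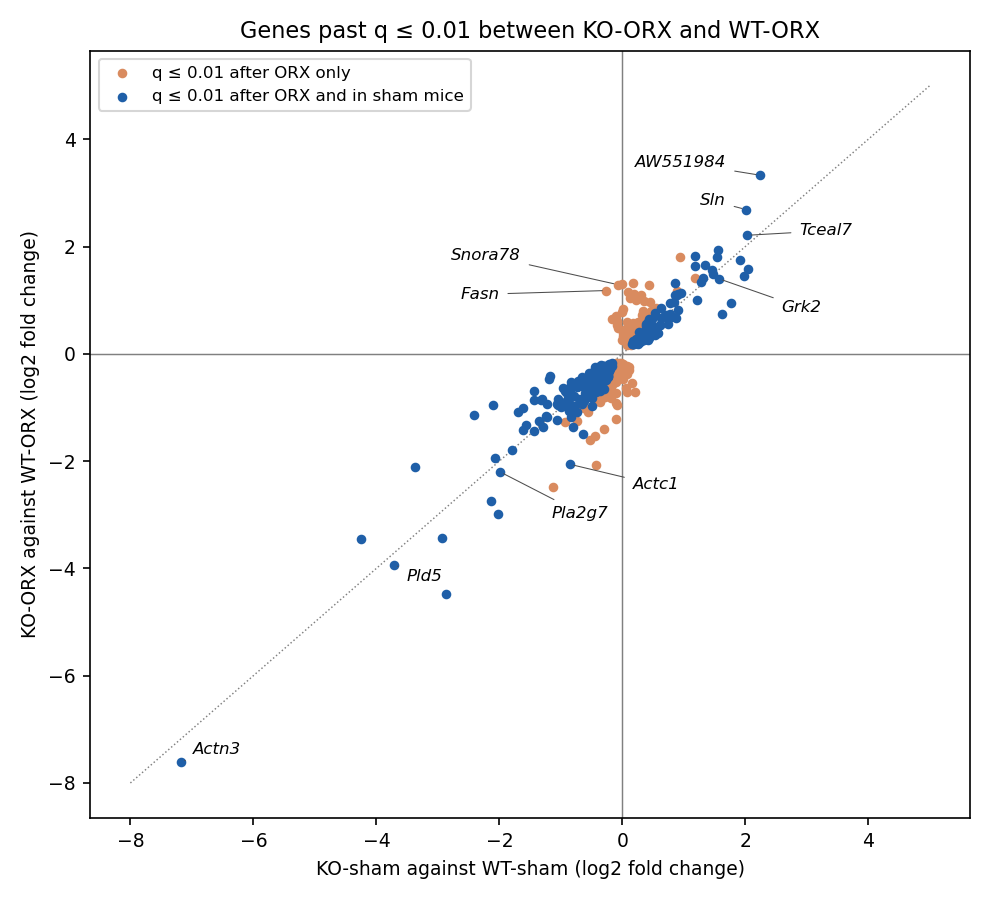
Log2 fold change of KO-ORX against WT-ORX (vertical axis) and of KO-sham against WT-sham (horizontal axis) for the 666 genes past q ≤ 0.01 by edgeR after ORX, with the dotted line where both are equal. The 348 genes also past q ≤ 0.01 in sham mice (blue) all have the same sign in both contrasts, and 24 of the other 318 (orange) have opposite signs.

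The genotype contrasts in the spinalis of female mice were given for the genes called after ORX. These experiments differ in muscle, sex, age and treatment, which cannot be told apart. With empty implants, 722 of 16987 genes (4.25%) were called, and 267 of the 660 ORX genes tested there were among them in the same direction, 40.5% of these ORX genes and 37% of the calls with empty implants, with 0 in the opposite direction. When only the 2 groups compared were fitted, 290 genes were called with empty implants, so these shares hold for the fit of all 4 spinalis groups. The calls with empty implants numbered 481 without WT-empty library 2, 450 without WT-empty library 3 and 453 without KO-empty library 3. With DHT implants, 1978 genes (11.6%) were called, and 329 of the 660 were among them in the same direction, 49.8% of these ORX genes and 16.6% of the calls with DHT, with 12 in the opposite direction. With library-size scaling, 282 of the calls with empty implants were higher and 251 lower, in place of 298 and 424, and 1295 of those with DHT were higher and 687 lower, in place of 872 and 1106. *Pitpna* was among the 12 opposite genes, lower in KO-ORX and at a log2 difference of 0.56 with DHT (edgeR q = 1.6e-05). In all 4 contrasts, 157 genes (23.6% of the ORX calls) were called in the same direction, 40 higher and 117 lower. By the smallest p-value after ORX they were led by *Actn3*, *Grk2*, *AW551984*, *Ybx3*, *E2f2* and *Pla2g7*. For *Grk2* the log2 difference was 1.40 after ORX, 1.57 in sham mice, 1.05 with empty implants and 1.30 with DHT. For *Ybx3* it was −0.87, −0.88, −0.85 and −1.06 in the same order. For *Pla2g7* it was −2.20, −1.99, −1.73 and −1.82. Of the 666 genes, 184 were called in none of the other 3 contrasts.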

How the data were processed

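The count values were made by the authors before they were deposited: per the study's methods and the submitters' processing notes, total RNA libraries (TruSeq Stranded Total RNA) were aligned to GRCm39 with STAR 2.7.1b, handled with SAMtools 1.9 and Picard 2.20.2, and counted per gene with featureCounts of Subread 2.0.0. Whether duplicates or strand entered the counting is not given in the sources used here.

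From these counts, R 4.3.3 and edgeR 4.0.16 fitted 1 mean per group over the 4 gastrocnemius groups (23 libraries) with TMM scaling and the quasi-likelihood F test, and the 4 spinalis groups were fitted separately. Genes needed at least 0.5 CPM in 2 libraries, which removed 0 of the 17514 genes. Thresholds were q ≤ 0.01 for genotype and q < 0.05 for the interaction. SE is the absolute log2 fold change divided by the square root of F, and log2 CPM used a prior count of 2. Gene names came from GENCODE M21 (17435 of 17514 matched), and columns of the spinalis table were matched to groups only. No 2 libraries of a gastrocnemius group differed by less than sampling noise (smallest chi-square per degree of freedom 9.09).

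Alternatives were DESeq2 1.42.0, limma 3.58.1 (voom), library-size scaling, other filters and thresholds, only the 2 groups compared, counts thinned to the smallest library, a replicate block, each library left out and, added after seeing the data, KO-ORX replicates 1 and 2 left out. Summaries used Python 3.11.15, and matplotlib 3.10.9 made the figures.

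Named were the alpha-actinins, the 12 higher and 12 lower non-overlapping genes with the smallest p-values, up to 4 called members and 2 others of each gene list, the genes that the study named, those called for the interaction, called genes within 5 Mb of *Actn3*, and up to 6 genes with the smallest sham difference or called in all 4 contrasts. Some genes that meet this rule are not reported here. Genes outside this rule are marked where they are named. The members and lists were chosen with earlier results of these data known.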

Additional observations from a re-analysis of the deposited data

Results flagged for a closer look

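Within KO-ORX and WT-ORX, 230 groups of values (named genes and summed cell type markers) were tested for a library far from the others, by the gap of the highest or lowest library to its nearest neighbour as a share of the group's whole range. Such a library was found in 14, and chance gives about 1 in 20 groups. Among the KO-ORX libraries, library 3 was far below the others for *Atrx* (gap 0.726 of the range), *Cd3e* (0.848), *Dmd* (0.748) and *Tmem100* (0.798). KO-ORX library 2 was far below for *Col9a1* (0.82), *Trim54* (0.758) and the summed endothelial markers (0.889). KO-ORX library 5 was far below for *Myom2* (0.743) and *Cmtm4* (0.74). Among the WT-ORX libraries, the lowest stood apart for *Drap1* (library 2, 0.629) and *Gm26448* (library 4, 0.71). The highest stood apart for *Cd3e* (library 5, 0.736), *Mrpl55* (library 3, 0.633) and *Efcab6* (library 3, 0.648).

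For 4 genes the genotype difference after ORX differed from that in sham mice by the interaction test of edgeR. The ORX difference minus the sham difference was 0.53 for *Ttll7*, 0.76 for *Spns2*, 1.36 for *Snora78* and −0.44 for *Efcab6* on the log2 scale. Without KO-ORX libraries 1 and 2 the edgeR q of the interaction was 0.0013 for *Ttll7*, 0.062 for *Snora78*, 0.1 for *Spns2* and 0.15 for *Efcab6*.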

How the results depend on the processing

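The 666 genes called between KO-ORX and WT-ORX became 1260 at q ≤ 0.05 and 363 without KO-ORX replicates 1 and 2, where fewer libraries enter the fit. The other settings gave 473 to 934, and leaving out 1 library gave 495 to 715. For the interaction, the 4 genes at q < 0.05 became 1 at q ≤ 0.01, 125 with DESeq2, 10 with limma-voom and 2 to 38 when 1 library was left out. At q ≤ 0.05, 1838 genes were called in sham mice, 1557 with empty implants, 3170 with DHT and 677 in both gastrocnemius contrasts. With empty implants, 290 were called when only the 2 groups compared were fitted, and 450 to 700 when 1 library was left out. The cause of these shifts was not tested.

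Of 99 called genes named in the text, 0 of the 98 with a DESeq2 q lost the call there (*Gm48719* had none), 4 did with limma-voom (*Tmem100*, *Sat1*, *Spns2*, *Ndufb2*), 27 in at least 1 fit that left out a library and 36 without KO-ORX replicates 1 and 2. Library-size scaling ended 17 calls, those of *Acvr2a*, *Ugp2*, *Gabarap*, *Sms*, *Cacng1*, *Ctsl*, *Irs2*, *Gm29773*, *Ryr1*, *Sgcd*, *Spns2*, *Odc1*, *Esr1*, *Myl1*, *C1qa*, *Mrpl55* and *Des*. Fitting only the 2 groups compared ended 16, those of *Sgcb*, *Gm48719*, *Gm8355*, *Ckm*, *Ctsl*, *Irs2*, *Gm31166*, *Psmb4*, *Sat1*, *Ryr1*, *4930481A15Rik*, *Elovl6*, *Esr1*, *Myl1*, *Fgfbp1* and *Mrpl55*. Among uncalled genes, the log2 difference of *Actn1* was −0.069 and that of *Ptprc* 0.012 without KO-ORX replicates 1 and 2. Leaving out 1 library gave −0.18 to 0.003 for *Ptprc*, −0.011 to 0.14 for *Mybph* and −0.031 to 0.20 for *Snhg9*. The cause was not tested.

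The replicate numbers did not pair the KO-ORX with the WT-ORX libraries. Same-numbered KO-ORX and WT-ORX libraries had correlations of −0.15 to 0.051 between their deviations from the group means (median −0.028, against −0.016 for other numbers), and 0 of 5 were over 0.1. Some same-numbered pairs of other groups were, 3 of 6 for WT-ORX with WT-sham (median 0.043, against −0.018 for other numbers, highest 0.17), 2 of 6 for KO-sham with WT-sham (0.04, against −0.022, highest 0.19) and 1 of 5 for KO-ORX with KO-sham (highest 0.13), so a shared effect of the number is not excluded there. These groups enter the interaction. With the replicate block, 627 genes were called between KO-ORX and WT-ORX, 572 of them among the 666, and 5 for the interaction. The block ended 9 of the named calls, those of *Irs2*, *Gm31166*, *Psmb4*, *4930481A15Rik*, *Sgcd*, *Fasn*, *Esr1*, *Chrnb1* and *Ndufb2*. Thinning all libraries to the smallest gave 609 calls.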
